A study of Mus musculus with 8 samples.

Results

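The imprinted growth genes H19, Dlk1, Meg3, Peg3, Mest, Plagl1, Grb10, Ndn, Zim1 and Phlda2, were followed through 8 RNA sequencing libraries of mouse embryonic fibroblasts with changed Taf4. They were chosen by symbol in the deposited expression table, without use of their levels, and their 19 transcripts were summed per gene. The 10 genes stand among 23281 genes in the table, of which 12025 passed the filters for testing. Only 4 of the 10 were among those tested (H19, Mest, Plagl1 and Grb10), and the other 6 are given as fragments.

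All cells were fibroblasts of strain C57BL/6, grown in the same serum-containing medium. The control cells (Taf4 loxp/-) carry a floxed and a null allele of Taf4, which encodes a component of TFIID, a general factor of transcription, although another label field calls their genotype wild type. The cells labelled knockout (Taf4 -/-) were also the background of both other groups, so every group lacks at least 1 intact Taf4 allele. The rescue groups are 2 clones with a stable transgene for full-length human TAF4 (hTAF4 wt, here wild-type rescue) and 2 clones with human TAF4 that lacks its TAFH domain (hTAF4 Δ, here TAFH-deleted rescue). The promoter of the transgene and whether the lines came from separate embryos are not given in the sources used here, so the p-values reflect no more than the spread among these particular samples, which may be technical.

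Imprinted genes are expressed mainly from the copy inherited from 1 parent, and DNA methylation set in the germ line marks which parent a copy came from. Many lie in clusters in which a shared control region governs several genes, and many act on fetal and placental growth. In fibroblasts taken from embryos, H19, Igf2, Dlk1, Mest and Grb10 are commonly measured because they are active in mesenchymal tissue before birth and are mostly turned down after it. Reads were not assigned to a parental copy here, so each level is the sum over both copies.

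Levels are FPKM, that is, fragments counted per kilobase of a transcript and scaled by library size. The steps between low FPKM values imply 14268000 to 17300000 fragments per library, so that 1 fragment on a transcript of 2 kb is worth 0.0322 to 0.0390 FPKM. The 2 control libraries differed by less than sampling noise, as did the 2 labelled knockout (chi-square per gene 0.737 and 0.615), and each pair was averaged and counted as 1 sample. The clones of each rescue differed by more than sampling noise (1.57 for wild-type and 2.45 for TAFH-deleted). Taf4a, the mouse Taf4 gene, was at 11.1 and 11.5 FPKM in control and at 12.5 and 12.4 FPKM in the libraries labelled knockout, and reached 19.2 FPKM in TAFH-deleted clone 2. This level, summed over the whole transcript, does not separate the libraries labelled knockout from control, and since the deleted exons are not given in the sources used here it does not check the label. All directions against knockout rest on the label. Of 10 fibroblast markers, 9 were at 5 FPKM or more in every library, and Thy1 was under 1 in all. All 6 epithelial, 4 endothelial, 5 trophoblast and 4 pluripotency markers were under 1 FPKM in every library. So were 4 of 5 skeletal muscle, 2 of 5 leukocyte and 2 of 5 adipocyte markers, and 0 of the 4 neural markers listed.

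The 4 tested genes were abundant, apart from H19, and the other 6 were at or near 0. Mest had the highest level of the 10 genes in 7 of the 8 libraries, from 101 to 119 FPKM there, and Grb10 followed at 87.9 to 98.4 FPKM in the same libraries. In TAFH-deleted clone 2 the order of this pair was turned, with Grb10 at 81.0 and Mest at 72.5 FPKM. Plagl1 came next at 48.6 to 66.9 FPKM, and H19 was at 1.64 to 18.3 FPKM. Across the 6 samples, on the log2(FPKM + 1) scale, H19 ranged over 2.87, Mest over 0.71, Plagl1 over 0.45 and Grb10 over 0.27. The plot of the 4 genes by library shows H19 as the gene that varied most in FPKM (it also filled a far lower share of its possible read starts than the others), highest in the libraries labelled knockout and lowest in the TAFH-deleted clones.

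**Figure D1:**
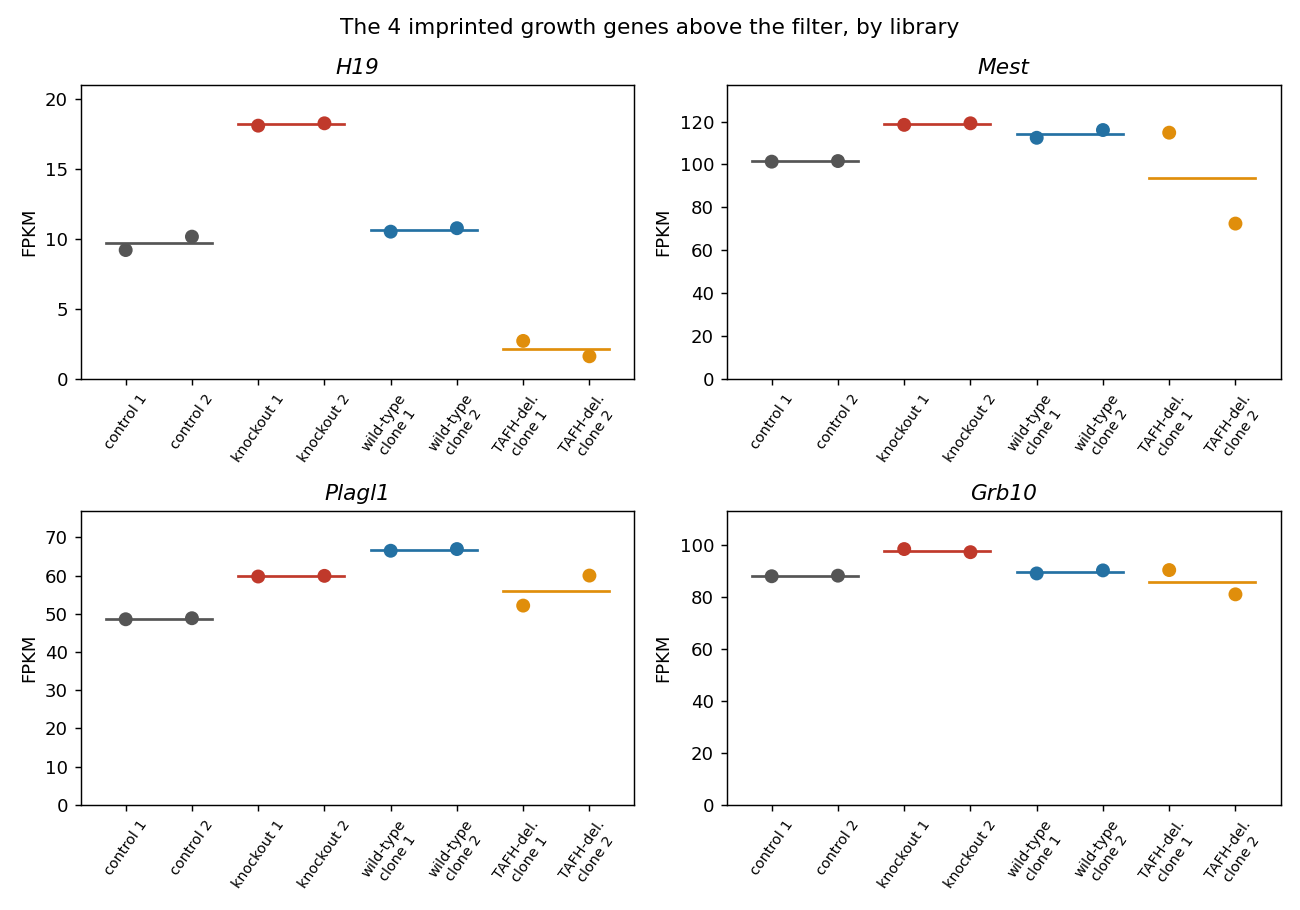
FPKM of H19, Mest, Plagl1 and Grb10 (1 panel each, vertical axis from 0) in each of the 8 libraries, with points for libraries and lines for group means. H19 lies near 18 FPKM in both libraries labelled knockout and under 3 FPKM in both TAFH-deleted clones, and Mest is lower in TAFH-deleted clone 2 than in all other libraries.

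H19 is a long noncoding RNA that restrains growth, lies next to Igf2 and shares enhancers with it. Its transcript (NR_001592, mm9 chromosome 7, bases 149761437 to 149764051) also carries the hairpin of miR-675, whose mature forms are known to target growth genes. The hairpin lies on the minus strand of chromosome 7, bases 142577064 to 142577147 in GRCm38.p6. The mature sequences from RefSeq are printed to show what H19 carries, with the seed (bases 2 to 8) in capitals, and they do not share a seed:
mmu-miR-675-5p: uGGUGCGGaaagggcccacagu
mmu-miR-675-3p: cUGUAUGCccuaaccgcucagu
The libraries measured mRNA and give no level for these small RNAs.

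H19 was at 9.23 and 10.2 FPKM in control and at 18.1 and 18.3 FPKM in the libraries labelled knockout. The wild-type rescue clones were at 10.5 and 10.8 FPKM (10.7 ± 0.175, SD, n = 2), and the TAFH-deleted clones were at 2.73 and 1.64 FPKM (2.18 ± 0.776, SD, n = 2). The libraries of each group lay apart from those of every other group, with control and wild-type rescue close together. The values rest on 384 and 425 fragments in control, 647 and 653 in the libraries labelled knockout, 434 and 440 in wild-type rescue, and 94 and 64 in TAFH-deleted rescue.

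H19 fell in TAFH-deleted against wild-type rescue by 1.90 ± 0.24 (SE) on the log2(FPKM + 1) scale, which is 3.72-fold, with an adjusted p of 0.0497 (limma, adjusted over 12025 genes). It was the only 1 of the 4 tested genes called in this comparison, in which 2.62% of all tested genes were called, 0.931% as higher and 1.69% as lower. At an unadjusted p under 0.05 it was also 1 of 4, beside 28.8% of all genes. Over all genes, the 315 calls of this comparison became 0 without wild-type clone 1 or clone 2, 6722 without TAFH-deleted clone 1 and 4806 without clone 2. The call of H19 is near the threshold and is lost without either wild-type clone. The differences were then -1.91 without clone 1 and -1.88 without clone 2. Among 16 alternatives, leaving out a control or knockout library could not move this test (limma adjusted p = 0.0497 each time). Its spread comes from the rescue clones. Counting all 8 libraries singly, without (0.00118) or with a replicate block (0.00424), adds the closer control and knockout pairs to the spread. Of the rest with 2 clones per rescue, H19 passed without the variance trend (0.0491). It was lost with quantile normalization (0.0523), a pseudocount of 0.1 (0.0588), no minimum length (0.0636), no filter (0.0924) and only the rescue libraries. H19 was lower in TAFH-deleted rescue under each of the 16 alternatives, by -2.28 to -1.64. In bulk RNA, fewer cells with H19 and less H19 per cell cannot be told apart. Of 9 tested fibroblast markers, 1 was called in the same comparison, Pdgfra, as lower (-2.33, limma adjusted p = 0.0366). The others went either way uncalled, from -0.73 for Pdgfrb to 0.18 for Vim.

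Against the libraries labelled knockout, H19 differed by -2.61 ± 0.29 in TAFH-deleted rescue (limma adjusted p = 0.417) and by -0.72 ± 0.29 in wild-type rescue (limma adjusted p = 0.409). Knockout differed from control by 0.84 ± 0.34 (limma adjusted p = 0.556) and wild-type rescue from control by 0.12 ± 0.29 (limma adjusted p = 0.891). None of these passed, and the 3 comparisons with knockout share that sample. No gene at all was called in these 4 comparisons (0.0% of 12025), each of which has an averaged pair as a lone sample on at least 1 side. At an unadjusted p under 0.05, H19 was the only 1 of the 4 genes in TAFH-deleted rescue against knockout, beside 6.56% of all genes there. Of the 4 genes, 0 were under that value in knockout against control and in wild-type rescue against knockout, beside 9.21% and 13.3% of all genes. Plagl1 was the 1 under it in wild-type rescue against control, beside 11.1%.

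The authors' deposited table calls H19 in all 3 of its comparisons, with a q-value of 0 for control against knockout, 4.12e-05 for wild-type rescue and 0.000974 for TAFH-deleted rescue against knockout. In the authors' deposited table the share of transcripts called is 53.8%, 25.8% and 0.957% in these comparisons. Of the transcripts of the 10 genes that the authors' deposited table tests, 4 of 4 were called in the first, 2 of 5 in the second and 1 of 6 in the third. The plot of differences shows that H19 has the largest departures from 0 of the 4 genes in all comparisons except wild-type rescue against control, where Plagl1 and Mest lie further out.

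**Figure D2:**
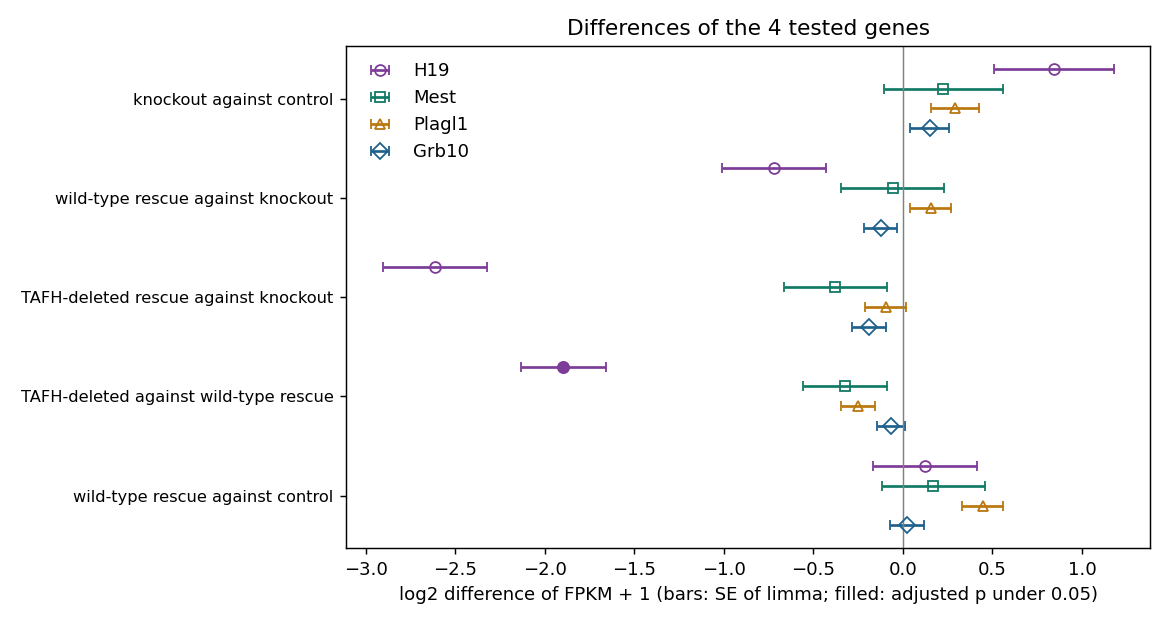
Differences between groups on the log2(FPKM + 1) scale (horizontal axis) for the 4 tested genes in 5 comparisons (vertical axis), with bars for the SE of limma and a filled symbol for an adjusted p under 0.05. Only H19 in TAFH-deleted against wild-type rescue is filled, at -1.90.

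Mest, also called Peg1, encodes an enzyme of the alpha/beta hydrolase fold that is expressed from the paternal copy in mesoderm and adipose tissue and favours growth. Its level was 101 and 102 FPKM in control, 118 and 119 in the libraries labelled knockout, 112 and 116 in wild-type rescue, and 115 and 72.5 in TAFH-deleted rescue. TAFH-deleted clone 2 stood below all other libraries, while clone 1 lay within the range of the wild-type rescue clones. The difference between the rescues was -0.32 ± 0.23 (limma adjusted p = 0.417), and without clone 2 it was 0.01. Mest passed in no comparison: the difference was 0.23 ± 0.33 for knockout against control (limma adjusted p = 0.835) and 0.17 ± 0.29 for wild-type rescue against control (limma adjusted p = 0.847).

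The sum does not show which Mest transcripts were listed. The RefSeq transcript NM_001252293 begins at a first exon of 108 bases, 4544 bases upstream of the start site of the main transcript NM_008590 in GRCm38, and shares 11 of its 12 exons with it. It was listed at 0 to 0.0183 FPKM in control, knockout and wild-type rescue libraries, and at 13.8 and 24.3 FPKM in TAFH-deleted clones 1 and 2. That is 12.0% and 33.6% of the Mest sum in these clones. The main transcript was at 96.7 and 97.9 FPKM in control, 116 and 118 in the libraries labelled knockout, 107 and 105 in wild-type rescue, and 99.6 and 47.7 in TAFH-deleted rescue. NM_001252292, which begins 3 bases from the main start and has 13 exons, was between 0.424 and 11.5 FPKM, lowest in TAFH-deleted clone 2 and highest in wild-type clone 2.

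In a fit over 14970 transcripts, added after these values were seen, the upstream transcript differed by 4.27 ± 0.35 between TAFH-deleted and wild-type rescue (limma adjusted p = 0.0744). No transcript was called in that fit (0.0%), and 23.7% had an unadjusted p under 0.05. The authors' deposited table tests it against knockout only, with a p-value of 0.329 and a q-value of 0.999878, and does not call it. Cufflinks divided the reads of shared exons between the transcripts, so the level of the upstream form hangs on reads of its first exon and the adjoining junction. The table places Mest on mm9 chromosome 6 in a locus from 30683506 to 30846760 that also holds Copg2. Since the sources used here do not state a stranded kit, reads of overlapping genes there cannot be told apart.

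**Figure D3:**
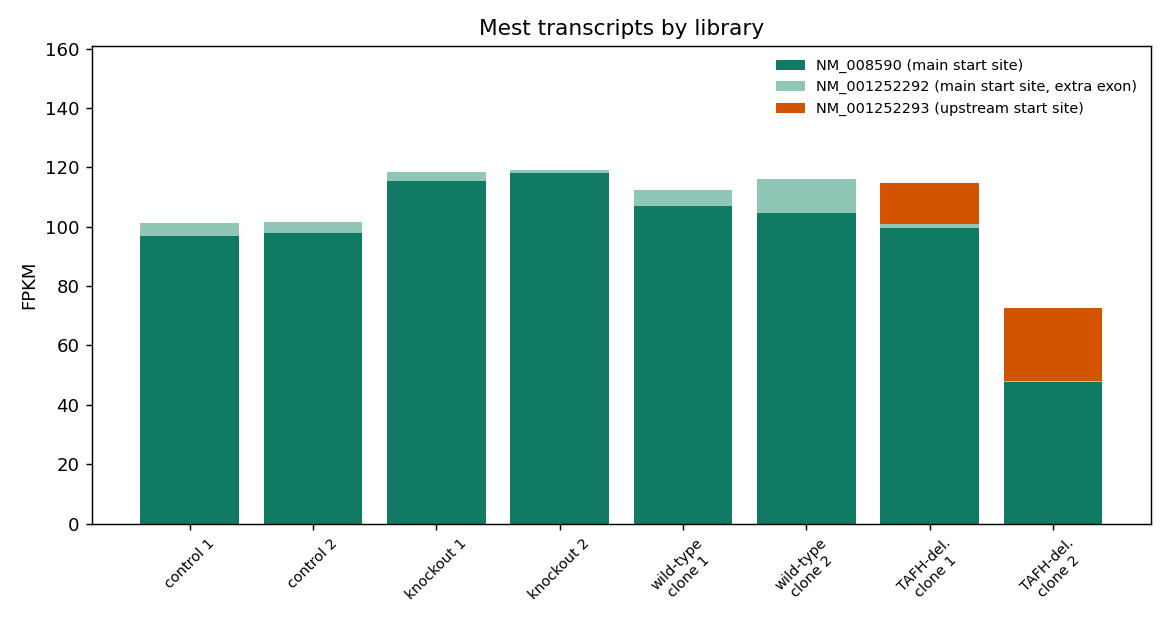
FPKM of the 3 Mest transcripts stacked for each library (vertical axis from 0). The upstream transcript appears in both TAFH-deleted clones, at 13.8 and 24.3 FPKM, and is at most 0.0183 FPKM in the other 6 libraries.

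The main transcript held 65.9% to 99.2% of the Mest sum in every library, while the upstream transcript was above a trace in the TAFH-deleted clones only. The promoters of both start sites are therefore printed. Each runs from 250 bases before to 50 after the start, on the plus strand of chromosome 6 in GRCm38.p6 as RefSeq places it, and capitals mark each CANNTG, the E-box letters that E proteins such as those encoded by Tcf3, Tcf4 and Tcf12 are known to bind (both strands are covered, since the pattern reads the same on each). The title of the series names E proteins as factors that TAF4 serves.
Mest upstream start, chr6:30733256-30733555: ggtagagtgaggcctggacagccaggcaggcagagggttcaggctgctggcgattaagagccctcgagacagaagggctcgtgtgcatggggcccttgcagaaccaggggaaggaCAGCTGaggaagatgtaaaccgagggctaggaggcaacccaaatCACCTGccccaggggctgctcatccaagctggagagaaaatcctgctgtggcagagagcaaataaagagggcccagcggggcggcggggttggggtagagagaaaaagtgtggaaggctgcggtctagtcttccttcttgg
Mest main start, chr6:30737800-30738099: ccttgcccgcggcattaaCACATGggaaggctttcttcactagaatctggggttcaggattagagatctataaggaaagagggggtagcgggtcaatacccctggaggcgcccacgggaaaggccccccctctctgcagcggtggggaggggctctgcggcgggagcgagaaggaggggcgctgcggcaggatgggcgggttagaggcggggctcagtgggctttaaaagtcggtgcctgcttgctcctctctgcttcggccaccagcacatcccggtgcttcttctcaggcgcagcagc
The upstream promoter held 2 CANNTG matches, of which 1 reads CACCTG or CAGGTG, and the main promoter held 1. The ratio of observed to expected CpG was 0.327 upstream and 0.590 at the main start, beside a median of 0.384 over all promoters. Of 32851 RefSeq promoters of 300 bases, 72.3% held CANNTG and 20.2% held CACCTG or CAGGTG, and 7 of the 13 promoters of the 10 genes held CANNTG (9 of the 10 genes matched the RefSeq table). A match to these letters is a description of the window and not a site of binding.

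Plagl1, or Zac1, encodes a zinc finger protein that stops cell division and is a known regulator of other imprinted genes. Its single transcript NM_009538 (mm9 chromosome 10, bases 12810594 to 12851501) was at 48.6 and 48.8 FPKM in control and at 59.8 and 59.9 FPKM in the libraries labelled knockout. In the clones it was at 66.5 and 66.9 FPKM in wild-type rescue and at 52.1 and 60.0 FPKM in TAFH-deleted rescue. Control was the lowest group and wild-type rescue the highest, and neither overlapped another. Between wild-type rescue and control the difference was 0.45 ± 0.11 (limma adjusted p = 0.347, unadjusted p = 0.0163). Between the rescues it was -0.25 ± 0.09 (limma adjusted p = 0.179), and knockout differed from control by 0.29 ± 0.13 (limma adjusted p = 0.601). None passed, and H19 and Plagl1 were the 2 of 4 tested genes whose TAFH-deleted clones both lay below both wild-type clones, beside 26.4% of all genes. The authors' deposited table calls Plagl1 for control against knockout (q-value 0) and for wild-type rescue against knockout (q-value 0.0407).

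Grb10 encodes an adaptor that binds the insulin and insulin-like growth factor receptors and limits growth. It is expressed from the maternal copy in most tissues and from the paternal copy in neurons. Its level (mm9 chromosome 11, bases 11830502 to 11937423) was 87.9 and 88.2 FPKM in control, 98.4 and 97.2 in the libraries labelled knockout, 89.0 and 90.2 in wild-type rescue, and 90.3 and 81.0 in TAFH-deleted rescue. The rescues overlapped and differed by -0.07 ± 0.08 (limma adjusted p = 0.603), and knockout against control gave 0.15 ± 0.11 (limma adjusted p = 0.704). Its transcript NM_001177629, which starts 9430 bases from that of NM_010345, held 1.47% to 9.44% of the Grb10 sum, the highest share being in TAFH-deleted clone 1. All 4 tested genes were higher in both libraries labelled knockout than in both control libraries, beside 40.3% of all genes.

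For the abundant genes the FPKM difference between control and the libraries labelled knockout was larger than the difference in fragments, or opposite to it. Mest had 4136 and 4156 fragments in control and 4146 and 4168 in the libraries labelled knockout. Grb10 had 7386 and 7435 against 7106 and 7020, and Plagl1 had 4239 and 4273 against 4474 and 4487, while the libraries held 17260000 and 17300000 fragments in control and 14808000 in each labelled knockout. These fragments filled 50.8% to 87.3% of the possible read starts (counting every base on either strand) of Mest over the 8 libraries, 61.5% to 73.1% of those of Grb10 and 35.8% to 54.5% of those of Plagl1, but 1.22% to 12.5% of those of H19. Over tested genes of at least 1000 bases, 379 to 592 of 11065 per library were over 50%. Whether the authors removed reads that share a start is not given in the sources used here. The part of this filling in the levels, their order, their ranges and the FPKM differences was not tested.

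The other 6 genes passed no filter. Dlk1 encodes a transmembrane ligand related to Notch ligands that holds back the formation of fat cells, and Ndn, a protein of the MAGE family, restrains cell division in neurons. Dlk1 (mm9 chromosome 12, bases 110691033 to 110701546) had 15 and 14 fragments in control, 2 in wild-type clone 1 and 0 in the other 5 libraries. Ndn (mm9 chromosome 7, bases 69493163 to 69494813) had 9 and 15 fragments in control and 0 in the other 6 libraries. Both were thus seen in control with more than 3 fragments per library and elsewhere with at most 2.

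Bounds took 3 fragments over a group as the floor of a count of 0, and the control count as exact. On these terms Dlk1 was at least 8.28-fold lower in the libraries labelled knockout than in control. It was at least 8.53-fold lower in TAFH-deleted rescue. Ndn was at least 6.85-fold lower in the libraries labelled knockout, 7.86-fold lower in wild-type rescue and 7.06-fold lower in TAFH-deleted rescue. These bounds cover counting error in the group at 0 only, and they compare libraries. Bounds that also allowed for counting error in control would be lower. In FPKM, control was at 0.211 and 0.196 for Dlk1 and at 0.360 and 0.599 for Ndn, both low levels. Fewer cells with these RNAs and less RNA in each cannot be told apart here either.

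Peg3, a zinc finger gene, and Zim1, its neighbour on chromosome 7 (mm9, bases 6658671 to 6683130 and 6628154 to 6649143), had 4 fragments or fewer in every library. Peg3 had 4 and 2.23 fragments in control, 1 in wild-type clone 1 and 0 elsewhere. By the same floor it was 1.78-fold lower in the libraries labelled knockout and 1.83-fold lower in TAFH-deleted rescue than in control. With a control count of only 6.231 fragments, taken as exact, these figures do not bound a decrease. Zim1 had 0 in every library, for which 3 fragments would be 0.0527 to 0.0638 FPKM. Meg3, the noncoding RNA expressed from the maternal copy of the Dlk1 cluster (mm9 chromosome 12, bases 110779206 to 110809939), had 1 fragment in control 1 and 0 in the other 7 libraries. Phlda2, a placental growth repressor (mm9 chromosome 7, bases 150687453 to 150688429), had 1 fragment each in wild-type clone 1 and TAFH-deleted clone 2. Gapdh, which all cells use, was listed at 0.0682 to 0.599 FPKM in these libraries, so that a low listed value need not be a low transcript level.

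**Figure D4:**
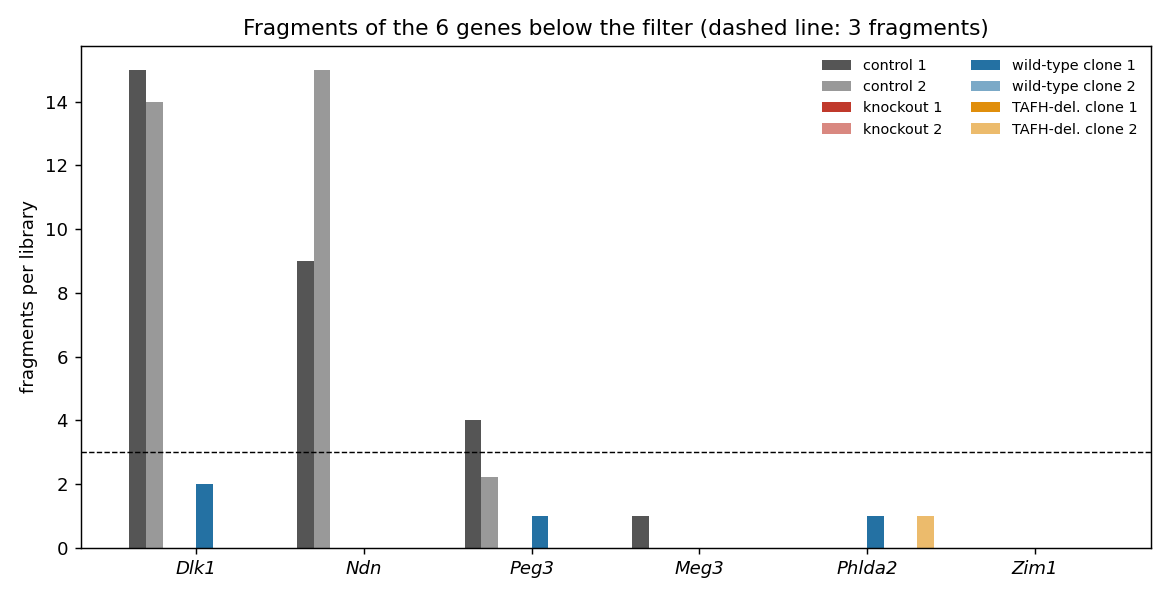
Fragments per library (vertical axis) for the 6 genes below the filter, with bars for the 8 libraries and a dashed line at 3 fragments. Dlk1 and Ndn exceed the line in both control libraries, at 9 to 15 fragments, and no library outside the control exceeds it for any of the 6 genes.

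Neighbours in the same imprinted clusters were listed next to the 10 genes (the lists were drawn up with earlier results of these data known). Of 80 such genes and other known imprinted genes, 76 were in the table and 43 were tested. In TAFH-deleted against wild-type rescue, 4 of the 43 were called lower (Dio3, Cpa4, Dcn and Dlx5) and 0 higher, beside 1.69% and 0.931% of all genes. Dlx5 passed the filter only through the wild-type rescue clones, in which it is high, so its call is no evidence of a difference. All 4 calls are lost without either wild-type clone, when no gene is called at all. The median difference of the 43 was -0.18 beside 0.06 over all genes. In knockout against control none was called.

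Dio3, a deiodinase that inactivates thyroid hormone, lies in the Dlk1-Meg3 cluster on chromosome 12. It was at 16.9 and 18.6 FPKM in control, 5.56 and 5.40 in the libraries labelled knockout, 11.8 and 8.92 in wild-type rescue, and 0.169 and 0 in TAFH-deleted rescue. It fell between the rescues by 3.38 ± 0.22 on the log2(FPKM + 1) scale (limma adjusted p = 0.0366), and the level in wild-type rescue lay between those of control and knockout. Dlk1 and Meg3, in the same cluster, were at or near 0 in every library of both rescues.

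Cpa4, a carboxypeptidase gene near Mest, was at 13.6 and 13.5 FPKM in control, 6.47 and 6.29 in the libraries labelled knockout, 18.1 and 26.9 in wild-type rescue, and 4.45 and 4.48 in TAFH-deleted rescue. It fell between the rescues by 2.08 ± 0.24 (limma adjusted p = 0.0470). Copg2, which encodes a subunit of the coat of transport vesicles and lies in the same locus as Mest, was at 27.3 to 39.1 FPKM and differed by 0.07 ± 0.20 (limma adjusted p = 0.843). Tsga14, known now as Cep41, differed by -0.20 (limma adjusted p = 0.450). Cpa4 was thus called and the other tested genes of the Mest list were not.

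Igf2, the growth factor gene next to H19, and Cdkn1c, a cell cycle inhibitor gene next to Phlda2, had their highest levels in control. Igf2 was at 2.31 and 2.24 FPKM in control, 0.136 and 0.0968 in the libraries labelled knockout, 0.353 and 0.254 in wild-type rescue, and 0.101 and 0.0706 in TAFH-deleted rescue. Igf2 and Cdkn1c, like Peg12, passed the filter only through the control libraries, so that a lower level elsewhere is partly set by the filter. The fragments of Igf2 were 140 and 135 in control and between 4 and 21 in the other libraries. The difference of knockout from control was -1.55 ± 0.19 (limma adjusted p = 0.160). H19 was higher in the libraries labelled knockout than in control (limma adjusted p = 0.556) and Igf2 lower, and neither difference passed. Since the filter partly sets the direction of Igf2, no contrast between H19 and Igf2 is drawn from it.

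Cdkn1c was at 5.33 and 4.59 FPKM in control, 0.159 in each library labelled knockout, 0.708 and 0.974 in wild-type rescue, and 0 and 0.0362 in TAFH-deleted rescue. It differed by -2.36 ± 0.22 between knockout and control (limma adjusted p = 0.128) and by -0.85 ± 0.16 between the rescues (limma adjusted p = 0.0720). Neither passed. Nap1l4, a histone chaperone gene beside Phlda2, was at 59.0 to 77.5 FPKM, and Tssc4 and Osbpl5 were at 30.5 to 49.5 FPKM, none of them called. Lsp1, near H19, was at 13.7 to 36.4 FPKM and differed between the rescues by -0.40 ± 0.42 (limma adjusted p = 0.570).

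In the Ndn cluster, Peg12, named after its values were seen, was highest in control, at 1.14 and 1.45 FPKM, and at most 0.0554 FPKM in all other libraries. Snrpn, which encodes a protein of small nuclear ribonucleoproteins, was at 6.26 and 6.18 FPKM in control, 2.69 and 3.10 in wild-type rescue, and 5.06 and 8.86 in TAFH-deleted rescue, and was not called (limma adjusted p = 0.131 between the rescues). Ube3a, a ubiquitin ligase gene, was at 26.4 to 32.3 FPKM in all libraries. Near Plagl1, Phactr2 was at 5.39 and 5.23 FPKM in control and 0.894 to 1.99 elsewhere, while Sf3b5, a splicing factor gene, was at 77.9 to 89.1 FPKM and Ltv1 at 36.4 to 58.6 FPKM. The map of the clusters shows these side by side, with Dlk1, Ndn, Peg12, Igf2 and Cdkn1c brightest in the 2 control columns.

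**Figure D5:**
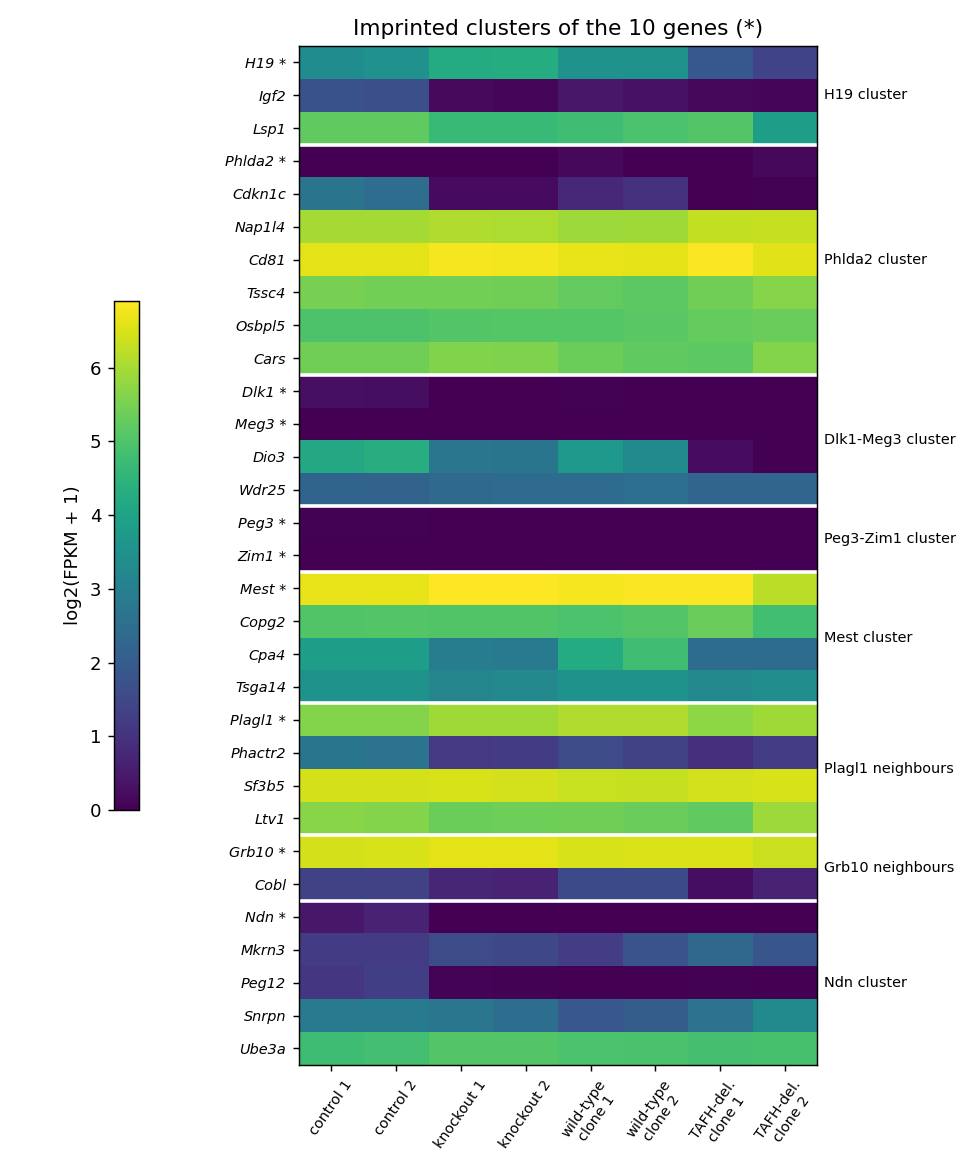
Heat map of log2(FPKM + 1) (colour) for the 10 genes (asterisks) and the tested genes of their clusters (vertical axis) in the 8 libraries (horizontal axis), with white lines between clusters. Igf2, Cdkn1c and Peg12 are brightest in the control columns, and Dio3 is dark in both TAFH-deleted columns (0.169 and 0 FPKM).

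The summed neural and adipocyte markers were also highest in control, while the summed leukocyte and skeletal muscle markers were not. Leukocyte markers summed to 11.7 and 11.9 FPKM in control and 12.6 and 13.8 in the libraries labelled knockout. They were at 15.4 and 13.9 FPKM in wild-type rescue and 7.63 and 8.73 in TAFH-deleted rescue. Skeletal muscle markers summed to 1.17 and 1.07 FPKM in control, 3.12 and 2.97 in the libraries labelled knockout, and 0.427 to 1.95 in the clones. Of 5 neural markers 4 were in the table, and their summed level was 92.0 and 88.5 FPKM in control against 11.5 to 29.7 FPKM elsewhere. Stmn2 was at 57.1 and 56.6 FPKM in control and at most 0.616 elsewhere, whereas Sox2, Nes and Tubb3 were between 0.579 and 20.2 FPKM in every library. The 5 adipocyte markers summed to 76.9 FPKM in each control library, 56.8 and 60.1 in the libraries labelled knockout, 57.9 and 68.1 in wild-type rescue, and 24.8 and 39.3 in TAFH-deleted rescue. Adipoq and Plin1, which define mature fat cells, were at most 0.0575 FPKM in every library. Against control, Pparg was lower in knockout (-2.27) and in wild-type rescue (-1.55) on the log2(FPKM + 1) scale, both uncalled. Fabp4 (0.02 and 0.05) and Cebpa (0.24 and 0.11) were not lower in these comparisons. The sum thus does not stand for each adipocyte marker. Between the rescues, 19 markers of all the lists were tested, and 3 were called lower, as H19 was, and 0 higher, beside 1.69% and 0.931% of all genes. Pdgfra, a receptor of fibroblasts, was at 51.3 and 52.2 FPKM in control, 17.4 and 17.3 in the libraries labelled knockout, 52.9 and 56.7 in wild-type rescue, and 11.5 and 8.81 in TAFH-deleted rescue, and was the only 1 of 9 tested fibroblast markers called (-2.33 ± 0.15, limma adjusted p = 0.0366). Fabp4, a fatty acid binding protein of adipocytes and macrophages, differed by -1.36 ± 0.10 (limma adjusted p = 0.0368) and Tubb3, a tubulin of neurons, by -1.93 ± 0.24 (limma adjusted p = 0.0497). They were 1 of 3 tested adipocyte and 1 of 4 tested neural markers. The other tested neural markers were higher and uncalled, Nes by 1.91 (limma adjusted p = 0.0544), Sox2 by 0.52 and Stmn2 by 0.34. Cebpa differed by -0.81 and Pparg by 0.09, neither of them called. The part of these markers in the levels of Dlk1, Ndn, Igf2, Cdkn1c and H19 was not tested.

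Among imprinted genes outside the clusters of the 10, 22 of 34 were tested and 2 were called between the rescues, both lower in TAFH-deleted clones, beside 1.69% of all genes called lower. Of these, Dlx5 was tested only through the clones in which it is high. Dcn, the matrix proteoglycan decorin, was at 24.0 and 24.4 FPKM in control, 0.642 in each library labelled knockout, 19.1 and 11.6 in wild-type rescue, and 0 and 0.0387 in TAFH-deleted rescue. It fell between the rescues by 3.96 ± 0.29 (limma adjusted p = 0.0366). Dlx5, a homeobox gene of bone and limb, was at 1.12 and 1.21 FPKM in wild-type rescue, 0 in both TAFH-deleted clones and at most 0.413 in control, and no weight is given to its difference of -1.12 ± 0.13 (limma adjusted p = 0.0479). Gatm, Commd1 and Sgce were not called in any comparison (limma adjusted p = 0.126, 0.0662 and 0.122 between the rescues). Gnas, which encodes the stimulatory G protein alpha subunit, was at 113 to 137 FPKM in all libraries. Igf2r, the receptor that clears the Igf2 protein, was at 16.4 and 16.2 FPKM in control, 22.8 and 23.7 in the libraries labelled knockout, 17.2 and 16.5 in wild-type rescue, and 14.9 in each TAFH-deleted clone, and was not called either.

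Genes that keep imprints in place, such as the methyltransferase Dnmt1 and its partner Uhrf1, were measured in 11 of 15 cases. None was called in any comparison, and 10 of the 11 were lower in the libraries labelled knockout than in control, with a median of -0.36 beside -0.03 over all genes. All 11 were higher in TAFH-deleted than in wild-type rescue (median 0.27 beside 0.06), from 0.06 for Ehmt2 to 1.23 for Uhrf1. Uhrf1 was at 33.3 and 33.0 FPKM in control, 14.1 and 14.7 in the libraries labelled knockout, 10.6 and 9.67 in wild-type rescue, and 17.7 and 35.7 in TAFH-deleted rescue. TAFH-deleted clone 2 was thus near control and clone 1 was not. Ctcf, the insulator protein that binds the H19 control region, was at 28.6 to 39.3 FPKM (limma adjusted p = 0.124 between the rescues). Ezh2 and Hells were likewise uncalled (limma adjusted p = 0.107 and 0.163).

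All 14 genes of insulin-like growth factor signalling were tested, and none was called in any comparison. Between the rescues 10 were lower and 4 higher in TAFH-deleted clones, with a median of -0.43 beside 0.06 over all genes. Igf1, the growth factor, was at 6.29 and 5.35 FPKM in wild-type rescue and 1.44 and 0.858 in TAFH-deleted rescue, a difference of -1.68 ± 0.22 (limma adjusted p = 0.0521). Igf1r, its receptor, was at 35.7 and 33.5 FPKM in wild-type rescue and 21.8 and 22.9 in TAFH-deleted rescue (limma adjusted p = 0.0615). Igf2bp3, which binds Igf2 mRNA, was at 11.1 and 10.6 FPKM in wild-type rescue and at 22.0 and 18.9 in TAFH-deleted rescue (limma adjusted p = 0.0674). Gigyf2, a partner of Grb10, was at 30.6 and 31.3 against 23.2 and 22.6 FPKM (limma adjusted p = 0.0864).

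The genes whose pattern was most like that of H19 over the 6 samples were Ppp1r3c, a regulator of glycogen synthesis (Pearson r = 0.986), and Mt2, a metallothionein (r = 0.983). They were taken from 2923 tested genes with a range of at least 1 on the log2(FPKM + 1) scale, of which 18 were over 0.95, and the samples other than control share the same knockout background. These correlations are descriptions only. Mt2 was at 82.0 and 81.9 FPKM in control, 105 in each library labelled knockout, 94.9 and 95.8 in wild-type rescue, and 38.2 and 27.3 in TAFH-deleted rescue. Ppp1r3c ran from 0 in TAFH-deleted clone 2 to 3.74 FPKM in a library labelled knockout. Mest, Plagl1 and Grb10 ranged over less than 1 and were not matched to other genes.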

How the data were processed

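Illumina mRNA libraries of 8 samples were analysed. Per the submitters' processing notes, the authors used CASAVA 1.8, TopHat, Cufflinks and Cuffdiff on mm9, and other versions and options are not given in the sources used here. The authors deposited FPKM values for 30028 transcripts in each library, with transcript length in bases (per the file headers) and the p-values and q-values of Cuffdiff, each quoted as the authors' own. The deposited loci count starts from 0 and were changed to start from 1.

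FPKM were summed per gene and chromosome, with accessions matched to symbols through a RefSeq table of GRCm38 (28875, or 96.2%, matched). In 12350 genes that have 1 transcript and 1000 bases or more, low values were whole multiples of 1 fragment for 100% of values in each library (tolerance 0.05 fragments, 204.2 bases taken from the length), which gave the fragments. Genes that reached 1 FPKM in 2 or more libraries (12209) and a longest transcript of at least 300 bases (184 left out) were tested with limma 3.58.1 in R 4.3.3, trend on log2(FPKM + 1), with 6 samples in 1 fit, 2 residual and 2.15 prior degrees of freedom, two-sided, and Benjamini-Hochberg adjustment at 0.05 over 12025 genes. The spread comes from the rescue clones alone. Fold changes on this scale understate those of low genes. On simulated data of 12025 genes for TAFH-deleted against wild-type rescue, 92 of 100 genes changed by 3 on the log2 scale were recovered. So were 15 of 100 changed by 1, and 15 unchanged genes were called. The simulation gave all libraries the same spread within a gene. The TAFH-deleted clones differed more than the wild-type clones (chi-square per gene 2.45 and 1.57), so it does not measure the error rate of these data.

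The 10 genes, the lists and the tests were chosen with earlier results of these data known. Named genes were the 10 members, up to 4 genes per list with the smallest adjusted p between the rescues and at least 5 FPKM in a library, any list gene called, Igf2, Igf2r, Cdkn1c and Gnas, and for genes with a range of at least 1 the 2 most correlated genes. Alternatives were a pseudocount of 0.1, no filter, quantile normalization, all 8 libraries without averaging, a replicate block, no minimum length, no variance trend, only the groups compared, and each library left out. The fit on transcripts was added after the data were seen. Promoters and miRNAs are from RefSeq, GRCm38.p6.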

Additional observations from a re-analysis of the deposited data

Results flagged for a closer look

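The effect of rescue on the libraries labelled knockout differed between the 2 forms of TAF4 for 5 of the named genes, by a test of the difference itself (limma, TAFH-deleted against wild-type rescue, in which the shared knockout sample cancels). On the log2(FPKM + 1) scale, TAFH-deleted minus wild-type was -1.90 for H19, -2.08 for Cpa4, -3.96 for Dcn, -3.38 for Dio3 and -1.12 for Dlx5. Dlx5 passed the filter on low values only through the wild-type clones, in which it is high, so no weight is given to it. All 5 calls are lost without either wild-type clone. Named genes were taken from lists by their adjusted p in this same comparison, so that the number of them is no measure of the lists.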

How the results depend on the processing

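Of the 4 tested genes, 1 (H19) was called, between the rescues, and 0 in the other comparisons. Between the rescues, H19 was lost (0 called) with a pseudocount of 0.1 (adjusted p = 0.0588), no filter (0.0924), quantile normalization (0.0523), no minimum length (0.0636) and only the 4 rescue libraries (0.0504). With no filter, 1 gene (Ndn) was called in knockout against control, beside 213 genes in all. The same gene was called in wild-type rescue against control, beside 264 in all. Ndn was at 0 in every rescue clone, and the spread comes from those clones, so no weight is given to these calls. With all 8 libraries counted singly, 2 were called in knockout against control (H19 and Plagl1) and 1 in wild-type rescue against knockout (H19). There was 1 in TAFH-deleted rescue against knockout (H19), 2 between the rescues (H19 and Plagl1) and 1 in wild-type rescue against control (Plagl1). Over all genes that fit called 2857, 2998, 1074, 4566 and 2429, in the same order. It counts pairs that differed by less than sampling noise as 2 samples each, so no weight is placed on its calls. With only the groups compared, 1 was called in wild-type rescue against knockout (H19) and 2 in wild-type rescue against control (Mest and Plagl1). Counts over all genes in those fits are not given here, so no weight is placed on these calls.

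Leaving out a control or knockout library left every call of the 4 tested genes as in the main fit. Between the rescues this was fixed beforehand, since the spread comes from the rescue clones. Leaving out a rescue clone left 1 clone in its group, so counts of the 4 genes from those fits are not given. Without a TAFH-deleted clone the spread came from the wild-type clones, and the lone clone is assumed to vary like them. Between the rescues the call of H19 was lost without either wild-type clone. Some directions turned, all of uncalled values: quantile normalization gave 0.144 for Mest and 0.0487 for Grb10 in wild-type rescue against knockout, and leaving out each library gave -0.195 to 0.00377 for Plagl1 in TAFH-deleted rescue against knockout, and, between the rescues, -0.649 to 0.00736 for Mest and -0.144 to 0.0115 for Grb10. The positive ends came without TAFH-deleted clone 1 for Plagl1 and without clone 2 for Mest and Grb10. The cause was not tested.

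Same-numbered libraries did not deviate together (correlations of -0.0776 to 0.0571), so the numbers do not pair the samples. With a replicate block on all 8 libraries, 2 were called in knockout against control, beside 2019 genes in all. In wild-type rescue against knockout 0 were called, beside 2232 in all, and in TAFH-deleted rescue against knockout 1, beside 461. Between the rescues 2 were called, beside 3921 genes in all, against 315 without block or single counting. In wild-type rescue against control 1 was called, beside 1622 in all. The block fit also counts the control and knockout pairs as 2 samples each, so no weight is placed on its calls. Over all genes between the rescues, 142 were called with a pseudocount of 0.1, 0 with no filter, 175 with quantile normalization, 4566 with 8 single libraries, 106 with no minimum length, 0 without either wild-type clone, 6722 without TAFH-deleted clone 1 and 4806 without clone 2. Over all genes, single counting called 2857 in knockout against control, 2998 in wild-type rescue and 1074 in TAFH-deleted rescue against knockout, and 2429 in wild-type rescue against control. Depth limits the 6 uncommon genes, for which 3 fragments are the floor.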
